A study of Nematostella vectensis with 9 samples.

Results

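A group of 104 gene models of the starlet sea anemone Nematostella vectensis was higher in every embryo sample injected with a morpholino against NvBMP2/4 than in any control sample or any sample with blocked TCF. They were 104 of the 21946 models with a count, and 0.474% of them. The study measured poly-A enriched RNA of whole embryos at 24 h after fertilization, raised at 17 °C, in 3 groups of 3 libraries each. The first group had a morpholino knockdown of NvBMP2/4, the second received RNA encoding dominant negative NvTCF (DnTCF), and the controls received dextran, an inert sugar polymer. No strain or age beyond the hours after fertilization was used here, and injection was common to all 9 libraries. No group with a control morpholino was analysed here, so a response to loss of BMP2/4 and a response to any morpholino cannot be told apart.

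BMP2/4 is a bone morphogenetic protein, a secreted signal that binds serine/threonine kinase receptors and acts through phosphorylated Smad proteins. In Nematostella, BMP signalling is known for patterning the directive axis, the body axis that runs across the oral-aboral one. TCF is the DNA-binding partner of β-catenin, and its dominant negative form blocks the transcription that canonical Wnt signalling drives. A morpholino is an antisense oligonucleotide that keeps an RNA from being translated or spliced, so it need not lower the level of that RNA.

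Members were chosen from the measured levels, as CPM, the count on a model scaled to a total of 1e6 counts on all gene models of its library. The lowest of the 3 morpholino libraries had to exceed the highest of the 6 DnTCF and dextran libraries. The morpholino mean had to be at least 5 CPM and at least 1.5 times each of the other means, and the DnTCF mean had to lie within 1.3-fold of the dextran mean. The higher level with the morpholino and the flat level with DnTCF are therefore conditions of the choice and are given as a description. Of the 11206 models with a morpholino mean of at least 5 CPM, 188 kept the 3 morpholino libraries above the other 6 (1.68%). The fold condition left 132 of these and the DnTCF condition 104 (0.928% of the 11206).

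The same conditions turned to the other direction, with 5 CPM asked of the lower of the DnTCF and dextran means, held for 91 models that were lower with the morpholino only. Set on DnTCF in place of the morpholino, they held for 28 models higher and 12 models lower with DnTCF only. The models are known here by their numbers in the JGI Nemve1 gene set. No source used here pairs these numbers with gene names, so no function is given for any member. For the same reason BMP pathway, Wnt pathway, endomesoderm and cell type marker genes could not be counted, and the targeted transcript was not analysed here.

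The libraries were uneven. The smallest and the largest library were both from the DnTCF group, with 1936858 counts on gene models in replicate 2 and 5994290 in replicate 1, so that 5 CPM rested on 9.68 to 30.0 counts. A pair of libraries stood apart from the rest. Morpholino replicate 1 had a TMM scaling factor of 0.732 where the other 8 had 0.953 to 1.12, and in dextran replicate 3 the share of counts without an assigned sequence was 87.8% where the others had at most 58.9%. The rule and the fits across all models are given with and without them. In bulk embryos, a change in the number of cells of a type and a change in RNA per cell cannot be told apart.

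The members covered a wide range of levels. Morpholino means ran from 5.21 to 2276 CPM with a median of 45.6 CPM, against a median of 20.3 CPM in the other 6 libraries. A mean of at least 100 CPM was reached by 39 members, 33 lay between 20 and 100 CPM, and 32 lay under 20 CPM. The ratio of the morpholino mean to the mean of the other 6 libraries ran from 1.60 to 7.88 with a median of 2.26. It was at least 2 for 68 members and at least 3 for 25. The gap between the groups was narrow for most. The lowest morpholino library was at least 1.5 times the highest other library for 11 members, and within 1.1 times it for 43.

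**Figure D1:**
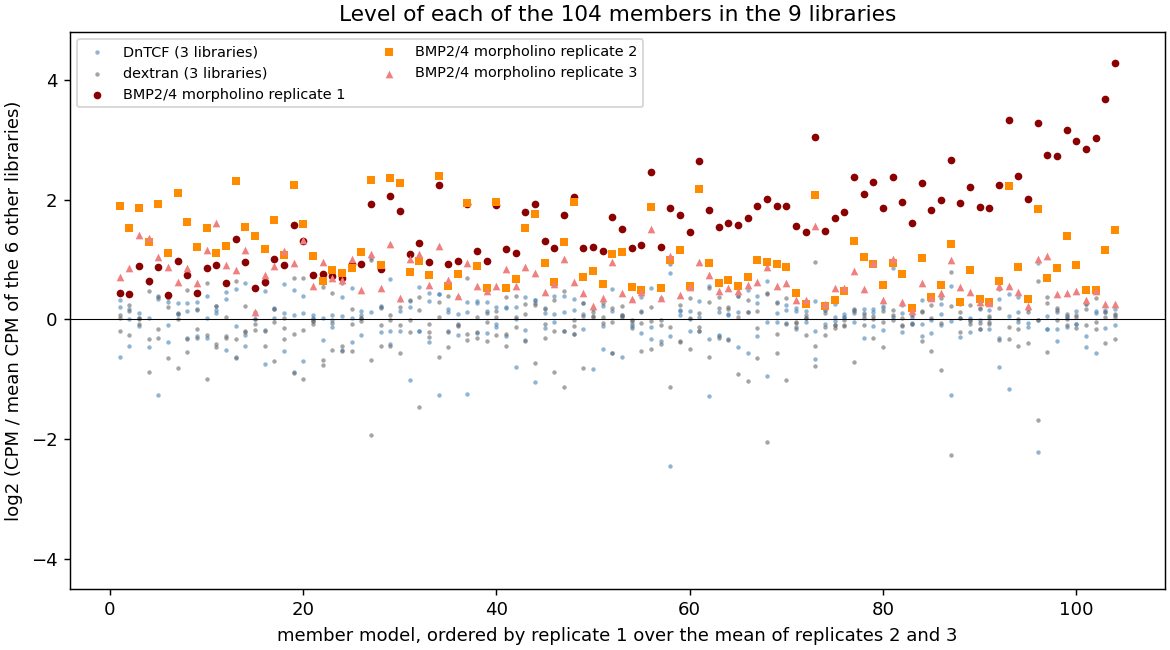
Level of each of the 104 members in each library, as log2 of its CPM over the mean CPM of the 6 DnTCF and dextran libraries, with members ordered by morpholino replicate 1 over the mean of replicates 2 and 3. Small blue and grey points are DnTCF and dextran libraries, and larger symbols are the 3 morpholino libraries. The 2 values of 0 CPM are not drawn. Replicate 1 moves from below the other morpholino libraries on the left to far above them on the right.

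The member with the widest gap was model 85294. It stood at 60.8, 40.1 and 31.3 CPM in morpholino replicates 1, 2 and 3, at 15.8, 8.78 and 9.99 CPM with DnTCF and at 7.74, 10.8 and 12.6 CPM with dextran. The morpholino mean was 44.0 ± 15.2 CPM, the DnTCF mean 11.5 ± 3.78 and the dextran mean 10.4 ± 2.45 (SD, n = 3 in each group). The lowest morpholino library was 1.97 times the highest of the others, and the means of DnTCF and dextran differed by less than their spread.

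Model 233208 had the next widest gap at a lower level. Its values were 23.6, 26.3 and 11.7 CPM with the morpholino, whereas DnTCF gave 6.67, 2.07 and 6.66 CPM and dextran 6.12, 5.13 and 3.23 CPM. Model 215357 was lower still, on 59, 34 and 20 counts with the morpholino and 2 to 19 counts in the other libraries, which came to 9.06 ± 4.86 CPM against 1.61 ± 0.532 with DnTCF and 1.91 ± 1.31 with dextran. For both models the spread among the morpholino libraries exceeded the whole level of either other group.

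Model 202860 stood at 62.0, 122 and 88.6 CPM with the morpholino, whereas DnTCF gave 35.9, 34.1 and 31.1 CPM and dextran 34.2, 31.8 and 33.5 CPM. Here replicate 1 was the lowest of the morpholino libraries. Its edgeR log2 difference, morpholino minus the mean of the DnTCF and dextran groups, was 1.54 (SE 0.216).

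Model 212793 was the only member among the 10 with the widest gaps that peaked in morpholino replicate 3. It stood at 284, 328 and 461 CPM with the morpholino, at 168, 163 and 177 CPM with DnTCF, and at 114, 110.3 and 176 CPM with dextran. Dextran replicate 3 was apart from the other dextran libraries here and reached the DnTCF level. Model 193641 peaked in replicate 2, with 104, 163 and 95.6 CPM set against 58.7, 52.2 and 58.2 CPM with DnTCF and 57.9, 50.3 and 31.9 CPM with dextran. Model 238590 was the most even of the 10 within the morpholino group, at 22.9, 27.8 and 22.9 CPM, but its dextran libraries spread from 4.62 to 14.8 CPM and its DnTCF libraries from 5.68 to 12.0 CPM.

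The other 3 of these 10 all peaked in morpholino replicate 1. Model 191787 stood at 851, 329.6 and 335 CPM with the morpholino and between 139 and 196 CPM in the other 6 libraries. Model 162437 stood at 415, 198 and 139 CPM against 48.7 to 89.3 CPM. Model 221490 stood at 183, 133 and 56.8 CPM against 25.5 to 36.0 CPM. In each of them the lowest morpholino library was still at least 1.5 times the highest of the others.

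**Figure D2:**
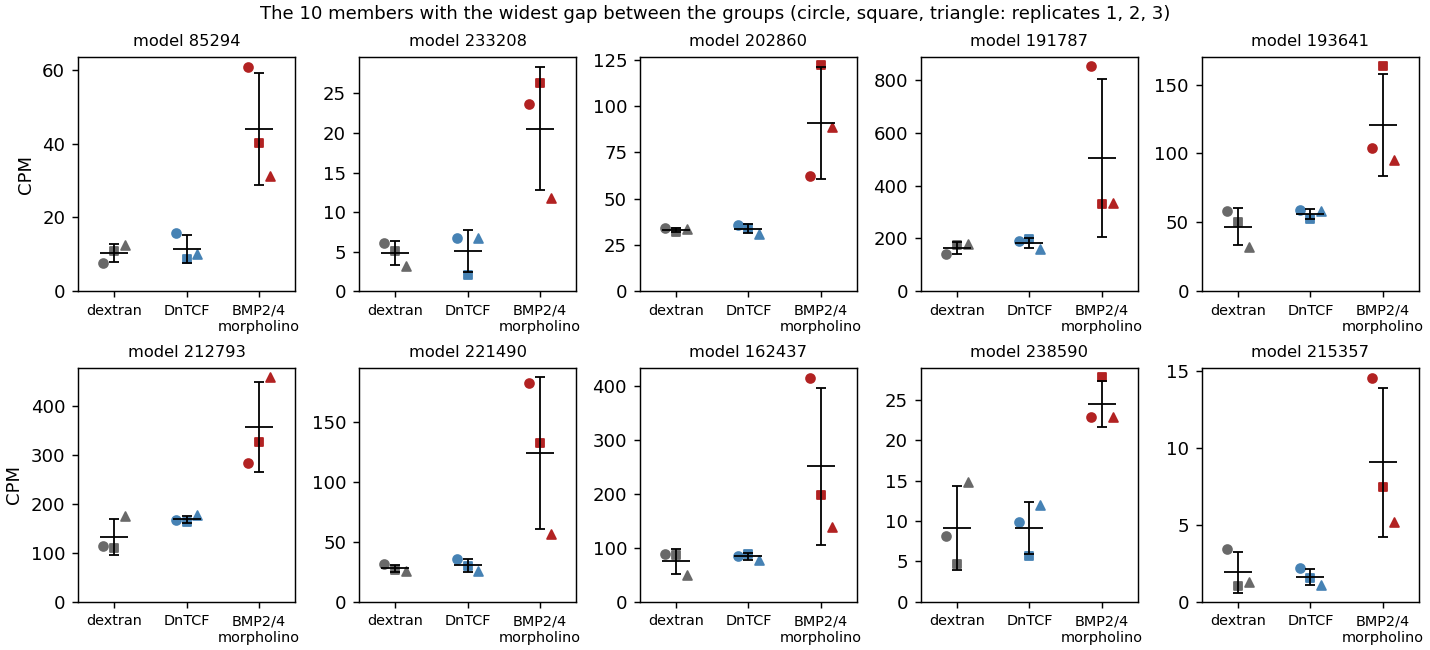
CPM of the 10 members with the highest ratio of the lowest morpholino library to the highest other library, by group, with circles, squares and triangles for replicates 1, 2 and 3 and black bars for the mean and SD of 3 libraries. Model 202860 has its dextran and DnTCF libraries between 31.1 and 35.9 CPM and its morpholino libraries between 62.0 and 122 CPM.

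The 8 most abundant members differed in how far the groups lay apart. Model 185061, the most abundant, stood at 2597, 2233 and 1997 CPM with the morpholino, at 1817, 1033 and 1669 CPM with DnTCF and at 1272, 1097 and 1156 CPM with dextran. Its morpholino mean was 1.51 times the DnTCF mean, next to the limit of the choice, and its DnTCF mean was 1.28 times the dextran mean, also next to its limit. Model 193909 stood at 931, 402 and 424 CPM against 281 to 374 CPM in the others, and model 187927 at 505, 920 and 379.7 CPM against 308 to 379.5 CPM. For model 187927 the lowest morpholino library and DnTCF replicate 2 thus differed by a fraction of a percent.

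The remaining abundant members were set apart mainly by morpholino replicate 1. Model 189578 stood at 2235, 531 and 392 CPM against 256 to 312 CPM in the other 6 libraries. Model 178614 stood at 1416, 617 and 446 CPM against 314 to 429 CPM. Model 171129 stood at 1659, 289 and 154 CPM against 98.3 to 144 CPM. In these models replicates 2 and 3 lay far nearer to the other groups than to replicate 1.

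Model 239510, at 866, 414 and 286 CPM against 162 to 227 CPM, had the same order of the morpholino libraries with a smaller step. Model 113802 differed from these in that its first 2 morpholino libraries were alike. It stood at 756, 711 and 283 CPM with the morpholino, whereas DnTCF gave 204, 154 and 231 CPM and dextran 155, 180.1 and 169 CPM.

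The largest ratio of means belonged to model 227246, with a morpholino mean of 130.3 ± 169 CPM, a DnTCF mean of 17.1 ± 1.54 and a dextran mean of 15.9 ± 2.37 (SD, n = 3 in each group). Its morpholino libraries stood at 324, 46.9 and 19.8 CPM, and the other 6 between 13.2 and 18.6 CPM. The mean was 7.88 times that of the other 6 libraries, replicate 1 alone was 19.6 times it, and the mean of replicates 2 and 3 was 2.02 times it. The ratio of means of model 171129 was 5.45, with 1.72 for replicates 2 and 3. Model 207311 had a ratio of 5.40 on 101, 53 and 14 counts with the morpholino and 5 to 20 counts in the others, and model 142430 a ratio of 5.11 on 41, 17 and 8 counts against 1 to 12. The members with the highest ratios were thus either uneven within the morpholino group or low in counts.

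The most even members within the morpholino group had smaller ratios. Model 162886 stood at 22.6, 24.1 and 22.1 CPM, with a ratio of 1.64 to the others, whose libraries ran from 9.75 to 21.4 CPM. Model 203649 stood at 38.4, 41.4 and 37.8 CPM with a ratio of 1.68, and model 248035 at 51.2, 48.4 and 54.2 CPM with a ratio of 1.91. The highest morpholino library was within 1.5 times the lowest for 16 members (15.4%), against 18.1% of the 11206 models with a morpholino mean of at least 5 CPM. The ratios of means of these 16 ran from 1.60 to 2.67.

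The order of the morpholino libraries among the members was unlike that among all models. Replicate 1 was the highest of the 3 for 71 of 104 members (68.3%), replicate 2 for 28 (26.9%) and replicate 3 for 5 (4.81%). Over the 11206 models with a morpholino mean of at least 5 CPM the shares were 26.7%, 41.4% and 31.8%, and replicate 1 was the lowest of the 3 for 60.3%. Replicate 3 was the lowest for 74 members. The descending order of replicates 1, 2 and 3 held for 58 members (55.8%) and for 17.0% of the 11206 models. The choice asked for a high morpholino mean, which a single high library can supply, so these shares describe the choice as well as the members. All of them rest on CPM per library total and were not computed after TMM scaling, in which replicate 1 had a factor of 0.732. On that CPM, replicate 1 over the mean of replicates 2 and 3 had a median of 0.652 over the 11206 models. The part of scaling in these shares was not tested.

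Replicate 1 was at least 2 times the mean of replicates 2 and 3 for 42 members (40.4%), against 10.1% of the 11206 models. Relative to the other 6 libraries, the median member stood at 3.05 in replicate 1, 1.93 in replicate 2 and 1.496 in replicate 3. The mean of replicates 2 and 3 was at least 1.5 times the mean of the other 6 libraries for 78 members and less for 26. The highest and lowest libraries of a group differed by a median of 2.17 times within the morpholino group, 1.52 times within dextran and 1.47 times within DnTCF. For the 11206 models those medians were 2.38, 1.59 and 1.53, with the morpholino group again the most uneven of the 3. These ratios and spreads, too, rest on CPM per library total and were not computed after TMM scaling.

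**Figure D3:**
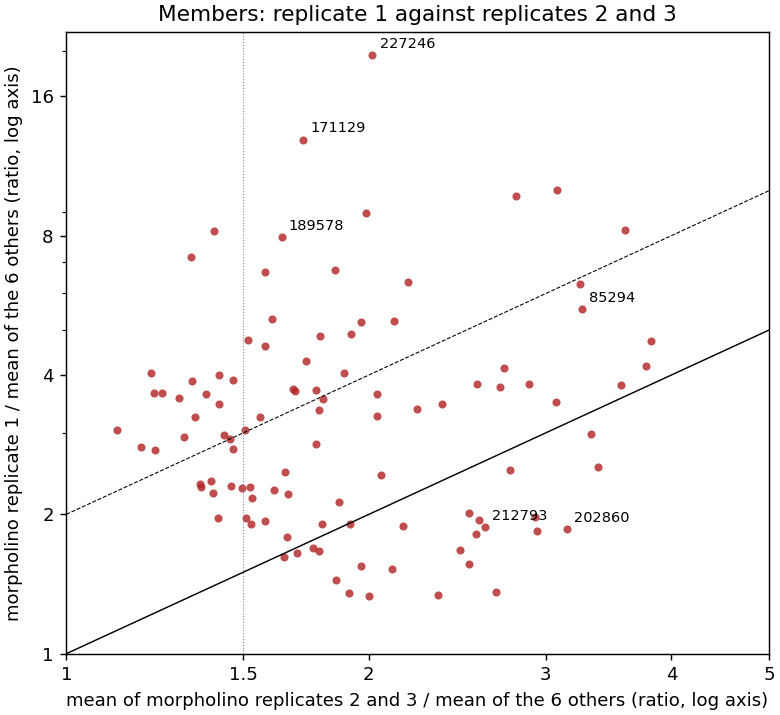
Each point is a member, plotted by the mean of morpholino replicates 2 and 3 over the mean of the 6 other libraries (horizontal, log axis) and by replicate 1 over the same mean (vertical, log axis). The solid line marks equal ratios, the dashed line a replicate 1 at 2 times the mean of replicates 2 and 3, and the dotted line a ratio of 1.5. Model 227246 lies at 2.02 and 19.6, while models 202860 and 212793 lie below the solid line.

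Without morpholino replicate 1, the rule held for 178 models, of which 63 were among the 104 members. In all 41 members that no longer met it, replicate 1 had been the highest library, and their replicates 2 and 3 averaged 1.12 to 2.80 times the other libraries. A member could be lost only where replicate 1 exceeded the mean of replicates 2 and 3, so the place of replicate 1 was largely fixed in advance. The abundant models 185061, 178614 and 193909 were among those lost, while 189578, 171129, 113802, 239510 and 187927 still met it. All 10 members with the widest gaps still met it, which was fixed in advance. In each of these 10 every morpholino library was above 5 CPM and at least 1.5 times the highest of the others. With a library left out, a member keeps the separation of its libraries, so only the other conditions could fail.

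Without morpholino replicate 3, which was the lowest library for most members, 504 models met the rule, 103 of the members among them. Without dextran replicate 3, 114 models met it, 89 of the members among them. Without morpholino replicate 1 and dextran replicate 3 together, an alternative chosen after seeing the data, 189 models met the rule, 54 of them members. Under the rule on all 9 libraries rescaled by TMM factors, 160 models met it, 91 of them members. A factor of 0.732 raises the CPM of morpholino replicate 1 above its value per library total.

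A set of 23 members met the rule under TMM, DESeq2 and upper-quartile scaling and without each of the 9 libraries in turn. Their ratios of means ran from 1.74 to 5.45 with a median of 2.73, and their morpholino means from 6.33 to 1053 CPM. They included 5 of the 10 with the widest gaps, namely models 85294, 202860, 191787, 221490 and 162437, and the abundant models 189578, 171129, 113802 and 239510. Replicate 1 was the highest morpholino library for 16 of the 23 and replicate 2 for 7. Leaving out a library cannot undo the separation of a member's libraries. Leaving out each of the 9 libraries thus tried only the CPM minimum, the fold and the DnTCF limit, while the scalings could also change the separation.

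Several of these 23 had been outside the members named so far and were singled out after their values were seen. Model 88887 stood at 327, 273 and 173 CPM with the morpholino, whereas DnTCF gave 122, 74.3 and 83.1 CPM and dextran 112, 73.9 and 100.3 CPM. Model 179528 stood at 43.1, 53.9 and 38.3 CPM with the morpholino against 24.6 to 27.4 CPM in the other 6 libraries. Model 81449 had a far higher replicate 1, at 729, 213 and 111 CPM against 74.8 to 86.6 CPM. Model 248405 peaked in replicate 2, at 51.7, 77.8 and 59.4 CPM, with 22.4, 19.6 and 40.4 CPM for DnTCF and 23.4, 23.1 and 31.0 CPM for dextran.

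**Figure D4:**
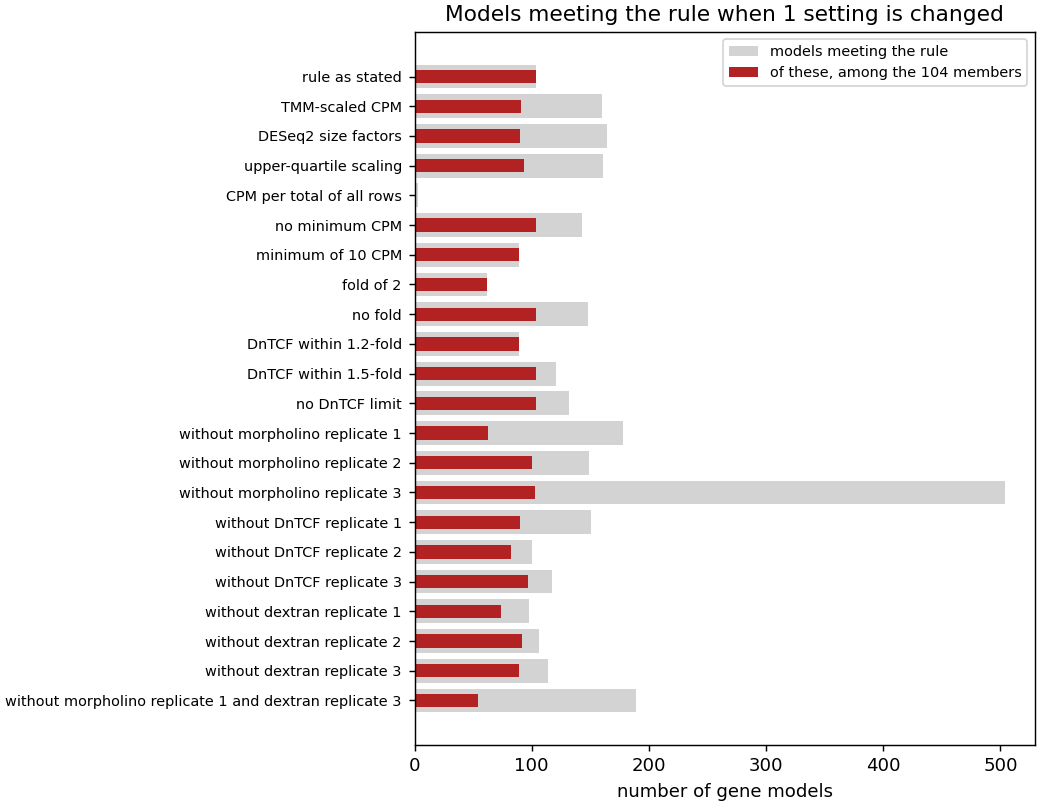
Number of gene models that met the rule when 1 setting was changed (grey bars, from 0) and how many of them were among the 104 members (red bars). The longest bar, 504 models, is the rule without morpholino replicate 3, and the red bar is shortest for CPM relative to all deposited rows, where 1 member is among the 3 models left.

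Mitochondrial and ribosomal RNA counts were high in morpholino replicates 1 and 2. The 104 members together made up 22111, 13327 and 10157 CPM in morpholino replicates 1, 2 and 3, and between 6169 and 7563 CPM in the other 6 libraries. The mitochondrial sequence stood at 498, 278 and 60.4 CPM in the same 3 libraries, in the same order, and between 8.72 and 75.6 CPM in the other 6. The 18S rRNA stood at 5871, 8791 and 3483 CPM against 1237 to 4343 CPM, and the 28S rRNA at 9354, 10203 and 5076 CPM against 2530 to 8302 CPM. Morpholino replicate 3 lay within the range of the other groups for all 3 of these sequences, while replicates 1 and 2 lay above it.

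None of the 4 measures outside the gene models passed the test of the morpholino against the other 6 libraries (exact two-sided permutation tests, n = 3 and 6, smallest possible p 0.0238). After adjustment over the 4 measures, a lone measure at this smallest p could not pass. The tests therefore cannot show that the groups are alike. The adjusted p over the 4 measures was 0.0952 for mitochondrial counts (6.96 times higher on average), 0.0952 for 18S rRNA (2.33 times), 0.127 for 28S rRNA (1.66 times) and 0.952 for the share of counts without an assigned sequence. That share was 58.9%, 42.0% and 43.5% with the morpholino and 39.6% to 87.8% in the others. The part of these differences in the members' levels was not tested.

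**Figure D5:**
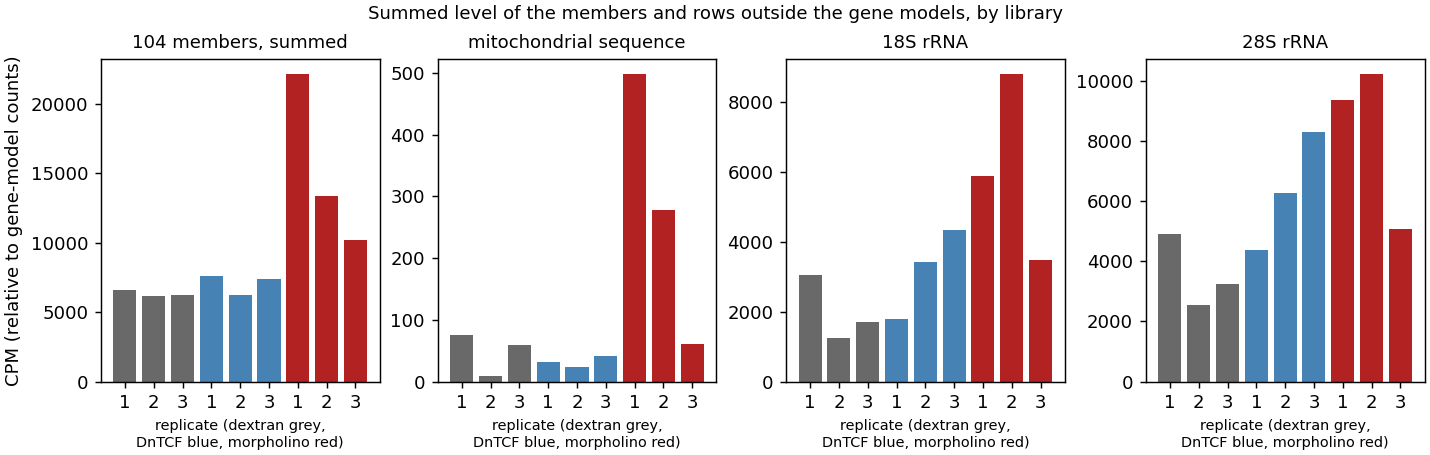
Summed CPM of the 104 members and CPM of the mitochondrial, 18S and 28S rRNA sequences in each library, all relative to gene-model counts, with bars from 0. The first 2 panels share the order of the 3 morpholino libraries, with replicate 1 highest and replicate 3 lowest.

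In edgeR's quasi-likelihood fit on all 9 libraries, 102 of the 104 members passed the filter on low counts. Models 142430 and 196291 did not. The contrasts below were used by the rule and share libraries, so the members' values in them are a description. No model was called at a Benjamini-Hochberg adjusted p under 0.05 in any of them (0% of 13559), members included. Against the mean of the DnTCF and dextran groups, the members' log2 differences ran from 0.88 to 3.40 with a median of 1.37, beside a median of 0.05 over all tested models. Scaled by library totals, those medians were 1.14 and -0.07, so TMM raised both, and the members' median by more than that of all models.

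Against dextran alone the median member stood at 1.43, and against DnTCF alone at 1.33, beside 0.07 and 0.03 over all models. The members' lowest edgeR adjusted p was 0.278 against the mean of both groups, 0.197 against dextran and 0.911 against DnTCF. At an unadjusted p under 0.05 against the mean of both groups, edgeR gave 1439 models, 1123 of them higher (8.28%), and all 102 tested members. The numbers in both directions were 1599 against dextran alone and 635 against DnTCF alone. Without morpholino replicate 1 the members' median fell from 1.37 to 0.78, with 62 of 103 tested members at an unadjusted p under 0.05, where 561 of all 13988 tested models were higher at that p (4.01%). Without dextran replicate 3 the members' median was 1.38.

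Other tools differed in the number of calls. Against the mean of the DnTCF and dextran groups, DESeq2's Wald test called 67 models higher with the morpholino (0.494%), 35 of them members, and limma-voom called none, with 988 models in both directions at an unadjusted p under 0.05. Against dextran alone DESeq2 called 116 models higher (0.856%), 26 of them members. Against DnTCF alone it called 3 higher (0.0221%), and those were members 202860, 221490 and 85294. Most of the 67 models were therefore not called against DnTCF by itself.

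The DESeq2 calls changed with the libraries that stood apart, in fits chosen after seeing the data. Without morpholino replicate 1, it called 27 models higher against the mean of the DnTCF and dextran groups (0.193%), 10 of them members. Against dextran alone it then called 99 (0.708%), 15 of them members. Against DnTCF alone it called 7 (0.05%), of which models 202860 and 221490 were members, and model 85294 was no longer called.

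Without dextran replicate 3, DESeq2 called 45 models higher against the mean of the DnTCF and dextran groups (0.319%), 30 of them members, and 41 against dextran alone (0.29%), 13 of them members. Against DnTCF alone it called 14 (0.0991%), 9 of them members. Models 202860 and 221490 were among these 9, and model 85294 was not. Models 202860 and 221490 were called against DnTCF alone in all 3 DESeq2 fits. These fits share most of their libraries, and the rule had used the same contrast, so this is a description. In edgeR both models had an adjusted p of 0.911 against DnTCF.

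The errors of these differences varied among the members. Beside 1.54 (SE 0.216) for model 202860 stood 2.34 (SE 0.375) for model 221490, 2.24 (SE 0.361) for model 85294, 1.38 (SE 0.243) for model 193641 and 1.38 (SE 0.257) for model 212793. The members set apart by replicate 1 had wider errors, with 3.40 (SE 0.730) for model 227246, 2.85 (SE 0.650) for model 171129 and 2.26 (SE 0.540) for model 189578. At the lower end stood the even model 162886 at 0.88 (SE 0.315) and the abundant model 185061 at 0.98 (SE 0.284).

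The rule cut through a continuous range. Just inside the limit of 5 CPM stood models 196291, 142430 and 245788, with morpholino means of 5.21, 5.30 and 5.56 CPM, and just outside it models 98336, 133840 and 204381 at 4.56, 4.41 and 4.37 CPM. At the 1.5-fold limit, models 122036, 185061 and 242342 stood inside at 1.51, 1.51 and 1.52, and models 244490, 133024 and 240648 outside at 1.49, 1.48 and 1.46. Failing a single condition, 39 models were left out by the CPM minimum, 44 by the fold and 28 by the DnTCF limit.

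The separation of the libraries was by far the strictest condition, with 546 models left out by it alone. Models 187927, 242342 and 248033 stood just inside, with a lowest morpholino library at 1.001, 1.007 and 1.015 times the highest other library, and models 114571, 106696 and 239691 just outside at 0.999, 0.998 and 0.995. At the DnTCF limit, models 185061, 200664 and 212793 stood inside with DnTCF and dextran means 1.28, 1.28 and 1.27-fold apart, while model 89765 lay barely outside it and models 237405 and 209249 outside at 1.302 and 1.31-fold. Among those outside was an abundant model set apart by replicate 1 like several members, 237405, at 1362, 357 and 296 CPM with the morpholino.

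DnTCF and dextran were held close by the rule, and within that limit the members varied little between them. The ratio of the DnTCF to the dextran mean ran from 0.789 to 1.28 with a median of 1.07. All 3 DnTCF libraries lay above all 3 dextran libraries for 3 members and below them for 0. The share over all models was not computed for this count or for those that follow, so they are a description only. The library that came nearest to the morpholino group was most often DnTCF replicate 1, the highest of the 6 for 32 members, or dextran replicate 1, for 29. Dextran replicate 3 was the lowest of the 6 for 33.

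Low counts limited some members. In 28 members at least 1 library held fewer than 10 counts, and 2 members had a library at 0, models 94320 and 218637, both in DnTCF replicate 2. Model 94320 had 38, 56 and 20 counts with the morpholino, 30, 0 and 12 with DnTCF and 27, 3 and 2 with dextran. Its lowest morpholino library stood at 5.21 CPM and the highest of the others, DnTCF replicate 1, at 5.005 CPM, a step well within counting error. The lowest count of any member in a morpholino library was 8, for model 142430.

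The model names also carry a scaffold number and the gene-finding set the model came from, neither of which the rule used. The members lay on 91 scaffold numbers, with 25 members on 12 numbers that held more than 1, and at most 3 on a number. The 11206 models with a morpholino mean of at least 5 CPM lay on 932 numbers. Whether members share numbers more often than other models was not tested. The 3 members that shared a number, models 187927, 187943 and 209813, were on scaffold 112 and had different orders of the morpholino libraries. Models 202860 and 241060 shared scaffold 38, and models 189578 and 245128 shared scaffold 146. Whether such members are neighbours was not tested, as no coordinates were used here.

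By gene-finding set, 29 members came from estExt_fgenesh1_pg (27.9%, against 25.5% of the 11206 models), 24 from fgenesh1_pg (23.1% against 16.4%) and 17 from e_gw (16.3% against 24.8%). Another 12 came from estExt_GenewiseH (11.5% against 7.49%) and 11 from estExt_gwp (10.6% against 9.99%). These shares are a description, with no test.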

How the data were processed

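Each deposited table held the raw read counts of 1 library on the reference sequences, from single-end reads of 50 bp per the labels' protocols. Per the submitters' processing notes, FastQC and Bowtie2 2.2.0 were used. How reads were counted, whether strand was used and what was done with reads of more than 1 match is not given in the sources used here. Near-identical models may therefore share reads. Sequences absent from a table were entered as 0. The unassigned, rRNA and mitochondrial rows were left out of library sizes and tests. A search of the model numbers in the 38762 rows of the RefSeq table for jaNemVect1.1 gave 0 matches.

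From the counts, CPM and the rule were computed in Python 3.11.15. All models were fitted with edgeR 4.0.16 in R 4.3.3 (filterByExpr, TMM, quasi-likelihood test, 1 mean per group, 9 libraries), with SE from the F statistic and Benjamini-Hochberg adjustment. The fit was run on simulated counts with planted changes larger than the median member's and equal in all morpholino libraries. This run is therefore no check of differences as small or as uneven as those of most members. DESeq2 1.42.0 and limma 3.58.1 were alternatives, with other scalings, filters, a replicate block and left-out libraries. Exact permutation tests used scipy 1.17.1. The named members were the 10 with the widest gap, the 8 with the highest level, the 5 with the highest ratio, the 3 most even ones and those next to each limit. The members and lists were chosen with earlier results of these data known. The design text calls the samples biological replicates.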

Additional observations from a re-analysis of the deposited data

Results flagged for a closer look

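Ribosomal RNA counts, which the rule does not use, were higher in each morpholino library than in any dextran library. The mean of the 28S row was 8211 ± 2748 CPM with the morpholino against 3549 ± 1213 with dextran, and that of the 18S row 6049 ± 2658 against 1995 ± 942 (SD, n = 3 each). DnTCF libraries reached 8302 and 4343 CPM, above the lowest morpholino library in both cases. Groups of 3 libraries are too small for a check of single outlying samples. The part of rRNA carry-over in the members' levels was not tested.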

How the results depend on the processing

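The number of models meeting the rule depended on the scaling. It was 104 as stated, 160 with TMM, 164 with DESeq2 size factors, 161 with upper-quartile scaling, 62 with a fold of 2, and 3 per total of all rows. That total includes unassigned reads, which were 49.2% to 87.8% of counts with dextran and 39.6% to 41.1% with DnTCF. Such a total lowers CPM more with dextran than with DnTCF, which bears on the DnTCF limit. Every CPM is also lowered against the fixed minimum. Which condition the lost members failed was not counted. Leaving out single libraries gave 98 to 504, and 189 without morpholino replicate 1 and dextran replicate 3 together. The number stayed within 1.5 times of 104 with no minimum (143), a minimum of 10 CPM (89), no fold (148), and a DnTCF limit of 1.2-fold (89), 1.5-fold (121) or none (132).

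With DESeq2 size factors, library totals, limma-voom or the replicate block, 0 models were called in each of the 3 comparisons, as in edgeR with TMM. Without a filter edgeR called 6 against dextran, 0 against DnTCF and 14 against the mean of both groups (8 members) among 21946 models. DESeq2 called 228 against dextran, 4 against DnTCF and 82 against their mean, then 221, 8 and 34 without morpholino replicate 1, and 94, 14 and 60 without dextran replicate 3. In edgeR, leaving out single libraries gave 0 to 10 against dextran, 0 in every case against DnTCF and 0 to 4 against their mean. Without morpholino replicate 1 and dextran replicate 3 the counts were 20, 0 and 3. The cause of these differences was not tested. Of the 364 log2 differences of the 28 named members with a fit under 13 alternatives, 17 passed an adjusted p under 0.05. The lowest difference was 0.24, without morpholino replicate 1. Against the mean of both groups, DESeq2's Wald test called 82 of 13559 models, 35 of them members. Without morpholino replicate 3, edgeR called 4 of 14155, all of them members. No other of the 13 alternatives called a member, so the 17 come from these fits alone. The positive sign of the 364 differences follows in large part from the rule and says nothing about stability.

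With the replicate number as a block, edgeR called 0 models in all 3 comparisons and the members' median log2 difference was 1.26. No label ties equal numbers to a batch or day. In their deviations from the group means, 3 of 9 same-number pairs correlated above 0.1 (-0.22 to 0.33), and the other pairs ran from -0.42 to 0.34. Deviations within such small groups depend on each other, so whether equal numbers share a batch or day cannot be told from these correlations. Depth limits the members under 20 CPM.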
